A study of Homo sapiens and Mus musculus with 34 samples.

Results

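The response of 4 human neuroblastoma lines to CYC065 was compared between the lines with an amplified MYCN gene, Kelly and BE2C, and the lines without that amplification, SKNAS and SHSY5Y. All human arrays of the series were used, 24 of its 34 samples, and they were chosen by their sample labels. The 12 arrays of the amplified lines and the 12 arrays of the other lines each held 3 CYC065 and 3 untreated arrays per line. Kelly, BE2C and SHSY5Y cells received 1 µM CYC065 for 1 h. SKNAS cells received it for 1 h at 1 µM by their sample labels and at 5 µM by the treatment protocol. The cells without CYC065 are called untreated in the sample labels, while the design text speaks of DMSO. Kelly and SKNAS came in an earlier deposit and BE2C and SHSY5Y in a later one, so each deposit held 1 line of either kind. That Kelly and BE2C carry the amplification is general knowledge about these lines, and each line stems from a single tumour.

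MYCN encodes a transcription factor of the MYC family that drives growth of many high-risk neuroblastomas when its gene is amplified. CYC065 inhibits cyclin-dependent kinases, among them CDK9, the kinase of P-TEFb that releases paused RNA polymerase II into elongation. Messages that decay fast, such as those of MYC family members, are known to be lost early when this step is blocked. Neuroblastoma cells of the adrenergic state are held there by a circuit of transcription factors that includes HAND2 and GATA3.

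The labels were set against MYCN and against lineage markers. Untreated MYCN levels were 11.74 and 11.72 in Kelly and BE2C, against 6.07 and 6.86 in SKNAS and SHSY5Y (means of 3 arrays, log2). HAND2 was well above background in every line, at 10.28 in Kelly, 9.84 in BE2C, 9.09 in SKNAS and 10.35 in SHSY5Y. SKNAS stood apart in other markers. DBH, which makes noradrenaline, had levels of 11.96 in Kelly, 11.53 in BE2C, 5.97 in SKNAS and 12.47 in SHSY5Y. Of 6 mesenchymal-state markers 5 were highest in SKNAS, with YAP1 at 7.35 there and between 4.38 and 4.43 in the other lines, while FN1 was highest in Kelly. The leukocyte marker PTPRC was at 2.89 in Kelly, 3.10 in BE2C, 8.65 in SKNAS and 3.04 in SHSY5Y, and CD68 was at 6.42, 6.61, 9.70 and 6.35 in the same order of lines. The epithelial keratin KRT18 was at 5.84, 6.23, 9.85 and 6.13. CD3E and CD14 lay between 4.57 and 5.13 in all 4 lines. The identity of the SKNAS arrays was not tested, nor was the part of these differences in the results below. The median over all array rows lay between 4.62 and 4.94, and replicate arrays correlated at r between 0.994 and 0.999 across genes, which are not independent replicates.

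The comparison asks whether CYC065 acted differently on transcripts where MYCN is amplified. The response of a line is its CYC065 mean minus its untreated mean on the log2 scale. The difference in response is the mean response of Kelly and BE2C minus the mean response of SKNAS and SHSY5Y. A gene was called at an adjusted p under 0.05 (limma, Benjamini-Hochberg over 32803 named genes). Of all genes, 319 (0.972%) were called, 139 (0.424%) higher and 180 (0.549%) lower in the amplified lines. When each array was centred on housekeeping genes, this split was 211 higher and 77 lower. The differences were mostly small, with a median of 0.36 among the lower genes and 0.43 among the higher ones (absolute log2). At least 2-fold differences were found for 9 higher and 3 lower genes.

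These p-values measure the spread between arrays, not between lines. With 2 lines of each kind an exact two-sided permutation test over lines cannot give a p below 0.333. Taking the 4 line responses as the observations gave 0 called genes by limma, with 1331 genes at an unadjusted p under 0.05. Each gene is therefore also given by its 2 pairs, Kelly minus SKNAS and BE2C minus SHSY5Y, which share no array.

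The amplified lines lay at both ends of the shared falls, and the other lines at both ends of the shared rises. A total of 941 genes fell in all 4 lines, and their median response was -0.75 in Kelly, -0.40 in BE2C, -0.48 in SKNAS and -0.55 in SHSY5Y. Kelly had the deepest fall of the 4 lines for 668 of these genes, and BE2C had the shallowest for 511. For 96 genes that rose in all 4 lines the median was 0.78 in Kelly, 0.56 in BE2C, 0.87 in SKNAS and 0.47 in SHSY5Y. Of all genes, 6046 (18.4%) were called in Kelly, 2087 (6.36%) in BE2C, 2710 (8.26%) in SKNAS and 2792 (8.51%) in SHSY5Y. Falls made up 3525 (10.7%) in Kelly, 1498 (4.57%) in BE2C, 1982 (6.04%) in SKNAS and 2246 (6.85%) in SHSY5Y. Rises made up 2521 (7.69%) in Kelly, 589 (1.8%) in BE2C, 728 (2.22%) in SKNAS and 546 (1.66%) in SHSY5Y. Kelly minus SKNAS gave 1277 calls (3.89%), 309 (0.942%) higher and 968 (2.95%) lower. BE2C minus SHSY5Y gave 326 calls (0.994%), 276 (0.841%) higher and 50 (0.152%) lower. Calls in the first pair were thus mostly lower and calls in the second mostly higher. The dose conflict for SKNAS touches the first pair and not the second, and its part was not tested. The second pair had 543 calls without SHSY5Y untreated replicate 3, 206 without SHSY5Y untreated replicate 2 and 204 without SHSY5Y CYC065 replicate 5.

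**Figure D1:**
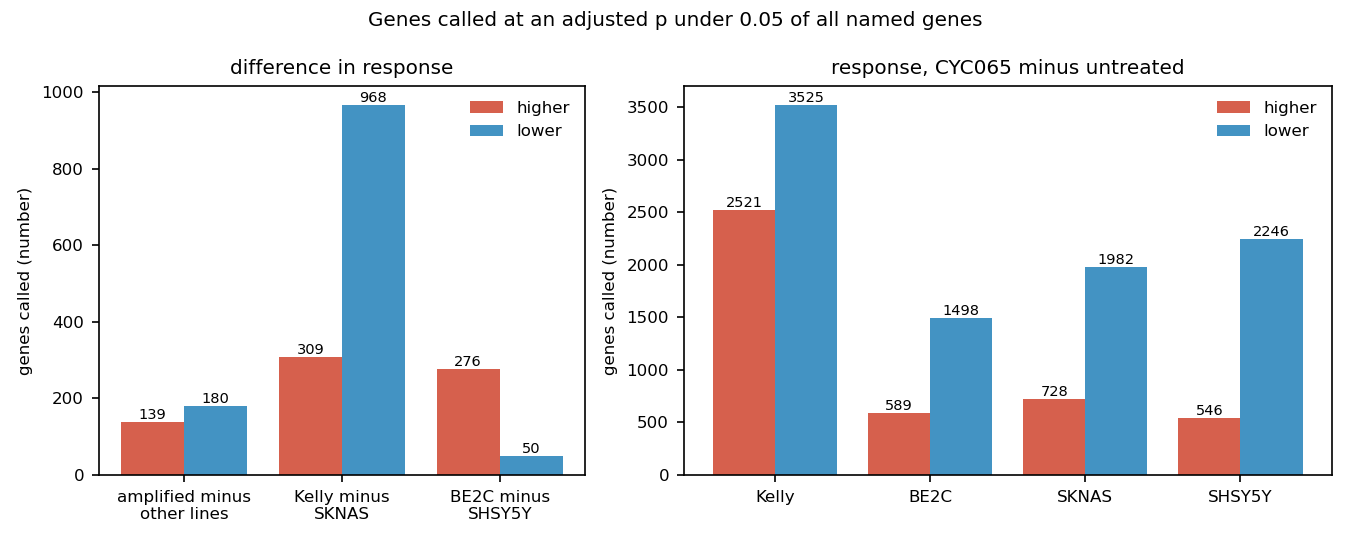
Number of genes called higher or lower at an adjusted p under 0.05, for the difference in response over all lines and in each pair, and for the response of each line. Kelly minus SKNAS holds 968 lower genes and BE2C minus SHSY5Y 276 higher ones.

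A small set of genes differed the same way in both pairs. These were 20 genes (0.061%), 11 (0.0335%) higher and 9 (0.0274%) lower in the amplified lines, and all 20 were also called in the mean difference. A total of 139 genes (0.424%) were called in both pairs in opposite directions, 132 of them lower in Kelly minus SKNAS and higher in BE2C minus SHSY5Y. The difference between the pairs was itself called for 1129 genes (3.44%), 168 (0.512%) above 0 and 961 (2.93%) below.

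**Figure D2:**
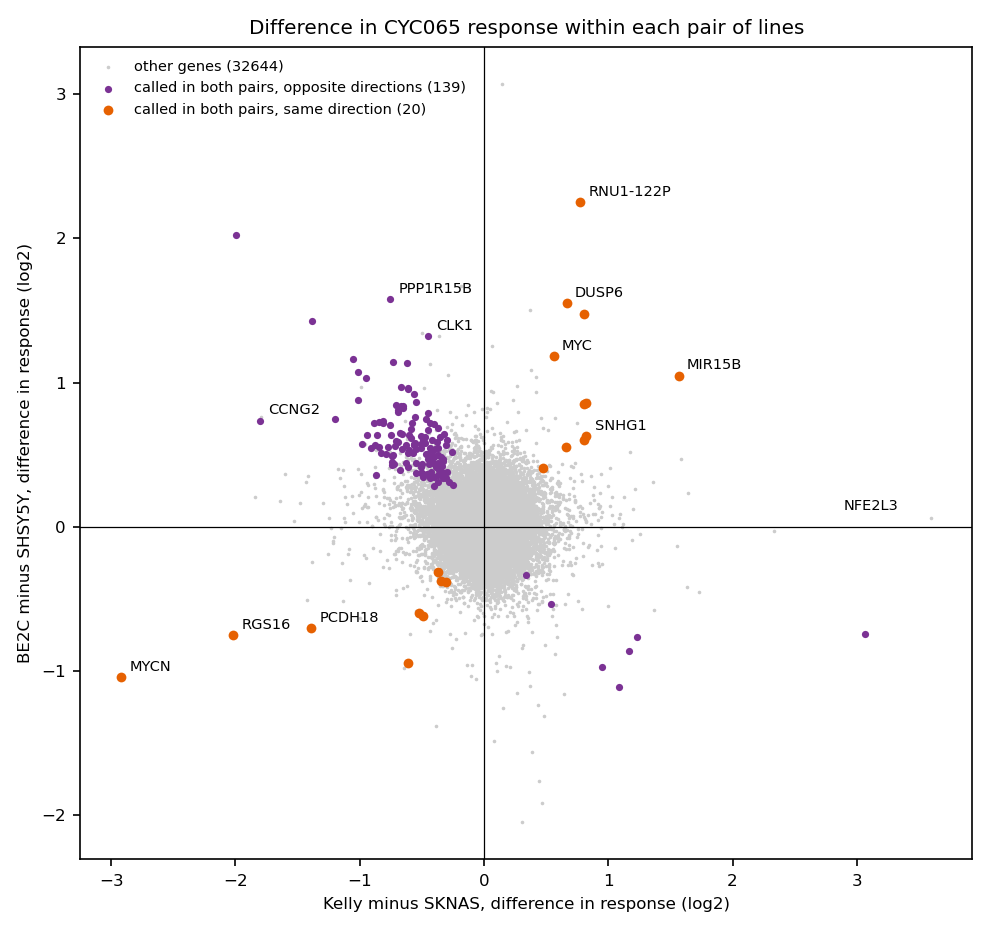
Each point is a gene, with its difference in response (log2) in Kelly minus SKNAS on the x axis and in BE2C minus SHSY5Y on the y axis. The 20 genes called in both pairs in one direction include MYCN at -2.92 and -1.04, and the 139 called in opposite directions lie mainly at negative x and positive y.

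The promoters of MYCN and RGS16 are shown because these genes had the largest lower differences. That of CIART is shown because it holds the most copies of the E-box CACGTG, a MYC family motif, among the windows of genes named with the sequences below. Each runs from 250 bases before to 50 bases after the start, from RefSeq on GRCh38.p14, with CACGTG in capitals. They lie at chr2:15940300-15940599 (plus strand), chr1:182604340-182604639 (minus strand) and chr1:150282304-150282603 (plus strand).
MYCN: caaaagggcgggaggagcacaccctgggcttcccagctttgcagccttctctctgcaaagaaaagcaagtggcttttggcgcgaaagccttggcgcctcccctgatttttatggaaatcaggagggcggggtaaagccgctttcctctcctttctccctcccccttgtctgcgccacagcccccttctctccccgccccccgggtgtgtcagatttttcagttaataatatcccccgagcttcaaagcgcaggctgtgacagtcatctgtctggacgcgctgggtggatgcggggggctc
RGS16: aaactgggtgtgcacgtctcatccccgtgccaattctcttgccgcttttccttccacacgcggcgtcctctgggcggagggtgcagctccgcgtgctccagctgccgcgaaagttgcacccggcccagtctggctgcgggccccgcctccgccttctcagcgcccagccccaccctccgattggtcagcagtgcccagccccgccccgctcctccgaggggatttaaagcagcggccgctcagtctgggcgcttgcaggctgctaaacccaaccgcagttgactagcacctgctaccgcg
CIART: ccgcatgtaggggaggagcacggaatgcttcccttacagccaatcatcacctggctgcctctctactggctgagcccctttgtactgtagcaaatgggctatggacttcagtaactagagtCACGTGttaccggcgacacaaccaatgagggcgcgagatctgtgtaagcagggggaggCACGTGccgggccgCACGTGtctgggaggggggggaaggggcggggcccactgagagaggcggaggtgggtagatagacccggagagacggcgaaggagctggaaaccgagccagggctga
CACGTG reads the same on both strands. It was in 0 of 8 windows of genes called in both pairs, those of MYCN, RGS16, PCDH18, NKX6-1, LPIN1, NEUROG2, SNHG1 and DUSP6. The other genes called in both pairs, MYC among them, had no window in this count. CIART, a circadian repressor with a difference in response of -0.42, held 3 copies, at -129, -71 and -57 bases from the start. The motif was in 21 of 120 windows (17.5%) of the lower genes and in 4 of 61 (6.56%) of the higher genes, against 1306 of 15152 (8.62%) of all genes tested. Among other lower genes, C2CD4A, HOXD13, CCNG2, AEN and ATF4 held it, and these were picked as carriers, so lower genes without it are not listed. These shares describe letters in a window and were not tested.

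MYCN itself had the largest lower difference. MYCN levels in Kelly were 8.73, 8.70 and 8.82 with CYC065, against 11.75, 11.73 and 11.73 untreated, and in BE2C 10.35, 10.30 and 10.28 with CYC065, against 11.63, 11.76 and 11.76 untreated. The arrays of the treatments did not overlap in either line. SKNAS arrays had 6.10, 5.84 and 6.08 with CYC065, against 6.30, 6.01 and 5.91 untreated, and SHSY5Y arrays 6.35, 6.31 and 6.84 with CYC065, against 6.88, 6.96 and 6.76 untreated. These groups overlapped in both lines. MYCN fell 7.91-fold in Kelly and 2.65-fold in BE2C, against 1.29-fold in SHSY5Y, and its SKNAS response of -0.06 ± 0.11 was not called (log2, moderated SE, 3 against 3 arrays). The difference in response was -1.98 ± 0.11 (adjusted p = 1.69e-09, limma), made of -2.92 in Kelly minus SKNAS and -1.04 in BE2C minus SHSY5Y. The pairs differed in size, by -1.88 (adjusted p = 2.87e-05, limma).

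MYC, the close relative of MYCN, was higher in the amplified lines through its fall in the others. MYC levels in Kelly were 5.24, 5.33 and 5.32 with CYC065, against 5.21, 5.10 and 5.10 untreated, and in BE2C 5.61, 5.61 and 5.52 with CYC065, against 5.44, 5.52 and 5.43 untreated. The MYC levels of SKNAS were 6.22, 6.30 and 6.37 with CYC065, against 6.71, 6.67 and 6.71 untreated, and those of SHSY5Y 6.15, 6.23 and 6.43 with CYC065, against 7.35, 7.43 and 7.24 untreated. MYC did not overlap between treatments in Kelly, SKNAS and SHSY5Y and overlapped in BE2C. The responses of 0.16 in Kelly and 0.11 in BE2C were not called, while MYC fell by 0.40 in SKNAS and by 1.07 in SHSY5Y. Its difference in response was 0.87 ± 0.07 (adjusted p = 1.04e-07, limma). Among the 13 measured genes of the MYC, MAX and MXD network, MYCN and MYC were the ones called, against 0.972% of all genes. MAX, the shared partner, had a difference of -0.01.

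**Figure D3:**
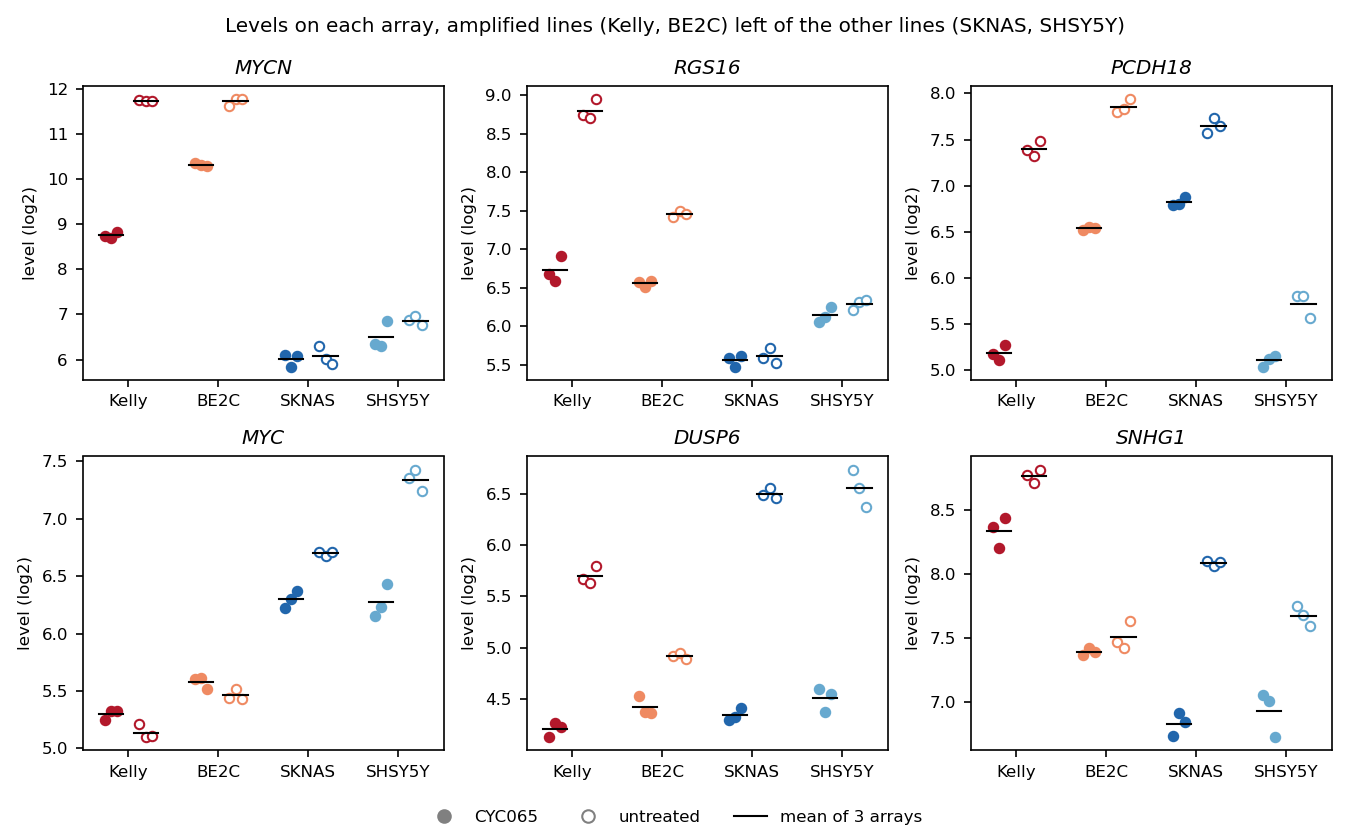
Level (log2) on each array of MYCN, RGS16, PCDH18, MYC, DUSP6 and SNHG1, with CYC065 left of untreated in each line. MYCN and RGS16 separate widely by treatment in Kelly and BE2C, and MYC in SHSY5Y.

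RGS16, which speeds GTP hydrolysis by G protein alpha subunits, had the next largest lower difference. RGS16 levels in Kelly were 6.68, 6.59 and 6.91 with CYC065, against 8.74, 8.70 and 8.94 untreated, and in BE2C 6.57, 6.51 and 6.59 with CYC065, against 7.42, 7.49 and 7.46 untreated. In SKNAS they were 5.59, 5.48 and 5.61 with CYC065, against 5.58, 5.72 and 5.53 untreated, and in SHSY5Y 6.06, 6.12 and 6.24 with CYC065, against 6.21, 6.32 and 6.34 untreated. RGS16 fell in Kelly and BE2C without overlap of arrays, by 2.07 and 0.90, and its overlapping responses of -0.05 in SKNAS and -0.15 in SHSY5Y were not called. The difference was -1.38 ± 0.08 (adjusted p = 1.69e-09, limma). Of 21 measured RGS genes 3 were lower and 0 higher, against 0.549% and 0.424% of all genes. Beside RGS16 these were RGS2 at -0.72 and RGS4 at -0.39. RGS2 fell in all 4 lines, by 2.81, 0.96, 1.73 and 0.59 in Kelly, BE2C, SKNAS and SHSY5Y. The median of the RGS list was 0.009, against 0.010 over all genes, and it turned negative under median centring, quantile normalisation and array weights.

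PCDH18, a protocadherin of cell adhesion, fell everywhere and fell deeper in the amplified lines. PCDH18 levels in Kelly were 5.17, 5.10 and 5.26 with CYC065, against 7.39, 7.32 and 7.49 untreated, and in BE2C 6.52, 6.54 and 6.54 with CYC065, against 7.80, 7.83 and 7.94 untreated. SKNAS arrays had 6.79, 6.80 and 6.87 with CYC065, against 7.57, 7.73 and 7.65 untreated, and SHSY5Y arrays 5.03, 5.11 and 5.15 with CYC065, against 5.80, 5.80 and 5.56 untreated. Arrays of the treatments did not overlap in any line. The responses were -2.22, -1.32, -0.83 and -0.62 in Kelly, BE2C, SKNAS and SHSY5Y, and the difference was -1.05 ± 0.07 (adjusted p = 1.17e-08, limma).

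The other lower genes of the set had smaller differences. NKX6-1, a homeobox factor of neural and islet development, fell by 0.70 in Kelly and 0.51 in BE2C, with responses of -0.18 in SKNAS and 0.08 in SHSY5Y that were not called. In Kelly, BE2C and SKNAS MAB21L2 fell by 1.15, 0.53 and 0.54, and it rose by 0.41 in SHSY5Y, so that BE2C and SKNAS lay together. MAB21L2 levels were lowest in SHSY5Y, at 4.68, 5.28 and 5.25 with CYC065, against 4.80, 4.46 and 4.71 untreated. These SHSY5Y arrays overlapped between treatments. CSF1, the macrophage growth factor, fell by 0.76, 0.39 and 0.46 in Kelly, BE2C and SKNAS, with -0.00 in SHSY5Y not called. The unnamed transcripts RP11-14O19.2 and LOC389834 fell in Kelly and BE2C and were not called in SKNAS or SHSY5Y, with differences of -0.56 and -0.36.

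LPIN1, a phosphatidate phosphatase of lipid synthesis, lies on the short arm of chromosome 2 as MYCN does. LPIN1 levels in Kelly were 7.65, 7.68 and 7.71 with CYC065, against 8.05, 8.10 and 8.14 untreated, and in BE2C 8.01, 8.02 and 7.90 with CYC065, against 8.36, 8.38 and 8.40 untreated. The LPIN1 levels of SKNAS were 7.46, 7.46 and 7.42 with CYC065, against 7.44, 7.51 and 7.51 untreated, and those of SHSY5Y 7.94, 7.90 and 7.83 with CYC065, against 8.01, 7.97 and 7.96 untreated. The fall of LPIN1 was 0.41 in Kelly and 0.40 in BE2C, and its responses of -0.04 and -0.09 in SKNAS and SHSY5Y were not called, although the SHSY5Y arrays did not overlap. Of 9 measured genes from the stretch around MYCN, MYCN itself counted, 4 were lower and 0 higher, with a median of -0.10. The shares over all genes were 0.549% and 0.424%. Besides MYCN and LPIN1 the lower genes were MYCNOS, the transcript opposite MYCN, at -0.43 (adjusted p = 0.0340, limma) and TRIB2, a pseudokinase, at -0.37 (adjusted p = 0.00248, limma). MYCNOS overlaps MYCN and was called in neither pair. TRIB2 responses were -0.83 in Kelly, -0.22 in BE2C, -0.13 in SKNAS and -0.19 in SHSY5Y, so BE2C lay near SHSY5Y. Of the 9 genes 3 were lower in Kelly minus SKNAS and 2, MYCN and LPIN1, in BE2C minus SHSY5Y. DDX1, NBAS, FAM49A, VSNL1 and SMC6 had differences between -0.10 and 0.15 that were not called.

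Among the higher genes of the set, DUSP6 and SNHG1 fell less in the amplified lines. DUSP6 dephosphorylates ERK, and its message is known to follow ERK activity. DUSP6 levels in Kelly were 4.13, 4.26 and 4.23 with CYC065, against 5.67, 5.63 and 5.79 untreated, and in BE2C 4.53, 4.38 and 4.37 with CYC065, against 4.92, 4.95 and 4.90 untreated. In SKNAS they were 4.30, 4.33 and 4.42 with CYC065, against 6.49, 6.56 and 6.46 untreated, and in SHSY5Y 4.60, 4.37 and 4.55 with CYC065, against 6.73, 6.56 and 6.37 untreated. After CYC065 the DUSP6 levels of the 4 lines lay together, between 4.13 and 4.60. The difference was 1.11 ± 0.08 (adjusted p = 4.1e-08, limma) on the brighter of 2 rows for this gene. It was 0.26 on the dimmer row, which was not called in both pairs. Of 26 growth factor feedback genes measured, DUSP6 and SPRY2, an inhibitor of receptor kinase signalling, were higher and 0 were lower. The shares over all genes were 0.424% and 0.549%. SPRY2 fell in each line, by 1.69 in Kelly, 0.90 in BE2C, 1.56 in SKNAS and 1.74 in SHSY5Y, and was called in BE2C minus SHSY5Y but not in Kelly minus SKNAS.

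SNHG1 is a host of small nucleolar RNAs that sit in its introns. SNHG1 levels in Kelly were 8.36, 8.20 and 8.44 with CYC065, against 8.77, 8.71 and 8.81 untreated, and in BE2C 7.36, 7.42 and 7.39 with CYC065, against 7.46, 7.42 and 7.63 untreated. SKNAS arrays had 6.73, 6.91 and 6.85 with CYC065, against 8.10, 8.06 and 8.09 untreated, and SHSY5Y arrays 7.06, 7.01 and 6.73 with CYC065, against 7.75, 7.68 and 7.59 untreated. SNHG1 fell 1.35-fold in Kelly, against 2.38-fold in SKNAS, and its BE2C response of -0.11 was not called, against a fall of 0.74 in SHSY5Y. The difference was 0.73 ± 0.08 (adjusted p = 2.35e-05, limma). SNORD22, which lies in an SNHG1 intron, had a difference of 0.70 and is not a further independent gene. Of 14 measured nuclear and snoRNA host noncoding RNAs 3 were higher, SNHG1, SNHG12 at 0.40 and GAS5 at 0.30, with a list median of 0.14. The share of higher genes over all genes was 0.424%. NEAT1, the scaffold of paraspeckles, was lower at -0.55. It rose by 0.49 in SKNAS and 0.99 in SHSY5Y, and its responses of 0.23 in Kelly and 0.15 in BE2C were not called. A second NEAT1 row, nearly as bright, gave 0.51 in Kelly, 0.23 in BE2C, 0.38 in SKNAS and 0.95 in SHSY5Y, with Kelly above SKNAS and a difference of -0.29 that was not called.

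Other higher genes of the set rose in 1 or both amplified lines. CCDC144B, a pseudogene, rose by 0.68 in Kelly and 0.55 in BE2C, with responses of 0.02 in SKNAS and -0.00 in SHSY5Y that were not called. Its untreated levels were 6.44 in Kelly and 5.14 in BE2C. In SKNAS and SHSY5Y they were 3.59 and 3.82, near the background medians of 3.30 and 3.75. On its dimmer row they lay below background there, at 2.85 and 3.19. The flat responses of these 2 lines are thus those of a transcript close to background. NEUROG2, a proneural factor, rose by 0.29 in Kelly and fell by 0.36 in SHSY5Y, and its responses of 0.05 in BE2C and -0.19 in SKNAS were not called. RNU1-122P, RNU1-85P, RNA5SP129 and RNA5SP255, copies of small nuclear and 5S ribosomal RNA genes, rose in both Kelly and BE2C, with differences between 0.83 and 1.51. RNU1-122P rose by 1.34 in Kelly, 2.61 in BE2C and 0.57 in SKNAS, with 0.37 in SHSY5Y not called. Of 111 U1 genes and copies 6 were higher and 0 lower, against 0.424% and 0.549% of all genes. Near-identical copies cannot be told apart on such rows.

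The mature microRNAs of MIR15B are printed with the seed, bases 2 to 8, in capitals, because this was the microRNA gene among the 20 (RefSeq, GRCh38.p14, chr3:160404607-160404628 and chr3:160404645-160404666, plus strand). The array row does not tell the mature forms from their precursor.
hsa-miR-15b-5p: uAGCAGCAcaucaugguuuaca
hsa-miR-15b-3p: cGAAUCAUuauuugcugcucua
MIR15B belongs to a microRNA family known to restrain cell cycle and BCL2 messages. MIR15B levels in Kelly were 5.07, 4.67 and 5.03 with CYC065, against 3.50, 3.78 and 3.91 untreated, and in BE2C 3.82, 4.25 and 4.18 with CYC065, against 2.67, 2.63 and 3.11 untreated. The MIR15B levels of SKNAS were 2.58, 2.31 and 2.68 with CYC065, against 2.84, 2.95 and 2.89 untreated, and those of SHSY5Y 3.09, 2.58 and 3.13 with CYC065, against 2.61, 2.67 and 2.84 untreated. Background rows of untreated arrays had medians of 3.29, 3.71, 3.30 and 3.75 in Kelly, BE2C, SKNAS and SHSY5Y, so MIR15B lay above background in Kelly and, with CYC065, in BE2C. MIR15B rose by 1.19 in Kelly, where both levels lay above background. It was below background in untreated BE2C and under both treatments in SKNAS and SHSY5Y, so the sizes that rest on those levels are limits only and are not given. The difference was called (adjusted p = 8.22e-05, limma).

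**Figure D4:**
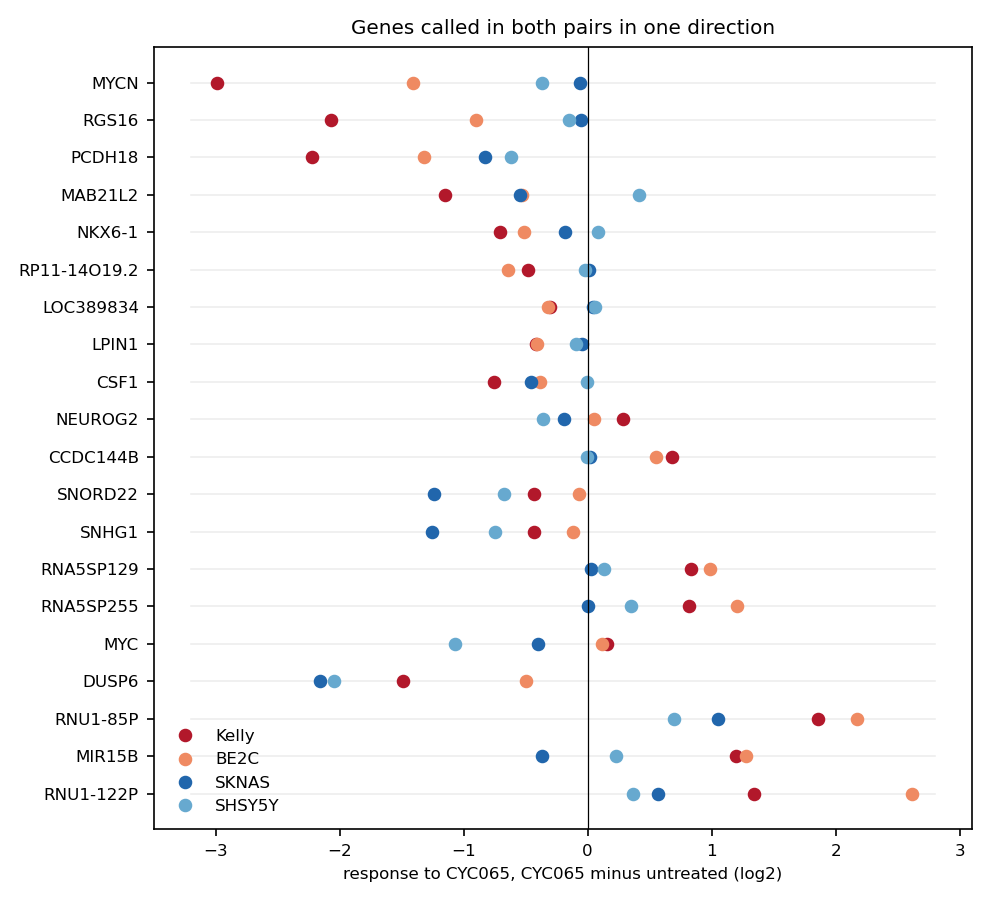
Response (CYC065 minus untreated, log2) in each line of the 20 genes called in both pairs in one direction. MYCN has -2.98 and -1.41 in Kelly and BE2C, against -0.06 and -0.37 in SKNAS and SHSY5Y.

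Apart from the minimum fold, 32 settings gave both pairs for the named genes, and 24 of these left out 1 array. MYCN, RGS16, PCDH18, MYC, SNHG1 and SNORD22 stayed in the set in each of the 32. The lines as observations, each deposit alone and the fit over all array rows are not among the 32. With a fold of at least 1.5 asked in both pairs 12 genes stayed, and MYC and CCDC144B, with a pair difference of 0.56 in Kelly minus SKNAS and 0.55 in BE2C minus SHSY5Y, were not among them. CCDC144B and DUSP6 stayed in all 24 fits without 1 array. NKX6-1 left it without SHSY5Y untreated replicate 2, and LPIN1 without BE2C CYC065 replicate 6, SHSY5Y untreated replicate 2 or SHSY5Y CYC065 replicate 5. NEUROG2 stayed in 9 of the 24 fits, CSF1 in 14, MAB21L2 in 15 and MIR15B in 19.

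Most called genes rested on the Kelly and SKNAS pair. Of the 180 lower genes 157 were called in Kelly minus SKNAS and 18 in BE2C minus SHSY5Y, and of the 139 higher genes 93 and 36. For 106 of the lower genes the message fell in both Kelly and BE2C, and for 50 it fell in both SKNAS and SHSY5Y. For 25 of the higher genes it rose in both Kelly and BE2C, and for 53 it fell in both SKNAS and SHSY5Y.

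NRIP1, a nuclear receptor corepressor, came close to the set. NRIP1 levels in Kelly were 8.01, 7.92 and 8.10 with CYC065, against 9.12, 9.16 and 9.20 untreated, and in BE2C 8.13, 8.21 and 8.20 with CYC065, against 8.74, 8.58 and 8.87 untreated. In SKNAS they were 4.70, 4.79 and 5.05 with CYC065, against 4.78, 4.91 and 4.88 untreated, and in SHSY5Y 4.83, 4.66 and 4.57 with CYC065, against 4.70, 4.61 and 4.86 untreated. NRIP1 fell in the amplified lines, by 1.14 and 0.55, while the arrays of the other lines, where it was low, overlapped. Its difference was -0.83 ± 0.09 (adjusted p = 2.25e-05, limma), and BE2C minus SHSY5Y missed the threshold (adjusted p = 0.0522, limma).

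C2CD4A, HOXD13 and SOX2 fell in Kelly, by 1.46, 1.42 and 1.19, and no fall of them was called in the other lines. HOXD13 is a limb patterning factor and SOX2 a neural progenitor factor. Their responses in BE2C, SKNAS and SHSY5Y ranged from -0.19 to 0.32, and the rise of C2CD4A in SHSY5Y was called. Untreated levels of these genes were highest in Kelly. HOXD13 lay between 8.44 and 8.71 there, against 5.03 to 6.33 in the other lines, and C2CD4A between 7.03 and 7.07, against 4.78 to 5.48. Untreated SOX2 reached at most 5.97 in the other lines, below every untreated Kelly array. With CYC065 only HOXD13 stayed above the other lines in Kelly. The part of these levels in the Kelly falls was not tested. ZFP36L2, which promotes decay of AU-rich messages, fell in all 4 lines, by 2.33 in Kelly, 1.22 in BE2C, 0.80 in SKNAS and 1.26 in SHSY5Y. Its pair differences were -1.53 in Kelly minus SKNAS and 0.04 in BE2C minus SHSY5Y.

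Several higher genes fell deeper in SKNAS and SHSY5Y. SGK1, a serum- and glucocorticoid-induced kinase, fell by 0.50 in BE2C, 1.11 in SKNAS and 0.70 in SHSY5Y, and its Kelly response of 0.01 was not called. NFIL3, a bZIP repressor, fell by 1.01, 1.37 and 1.42 in Kelly, SKNAS and SHSY5Y, with 0.08 in BE2C not called. TXNIP, which binds thioredoxin and restrains glucose uptake, fell by 1.23 in Kelly, 0.87 in BE2C, 1.65 in SKNAS and 1.80 in SHSY5Y. NFE2L3, a CNC-bZIP factor, had the largest higher difference among the genes named, 1.83 ± 0.23, on the brighter of its 2 rows. On that row it did not fall in SHSY5Y, with responses of 2.28 in Kelly, 1.06 in BE2C, -1.32 in SKNAS and 1.00 in SHSY5Y. BE2C and SHSY5Y thus lay together, and the difference came from Kelly minus SKNAS. The dimmer row gave 0.13, so the difference of this gene is uncertain.

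Some higher genes fell in SKNAS and little elsewhere. CYR61, a matricellular target of YAP, fell by 0.82 in SKNAS, with 0.12, 0.03 and -0.04 in Kelly, BE2C and SHSY5Y not called. NFKBIZ and BIRC3 of the NF-kB pathway fell by 1.02 and 0.54 in SKNAS, and FOSL1, an AP-1 subunit, by 0.70. These 4 genes were called in Kelly minus SKNAS and not in BE2C minus SHSY5Y. SKNAS is also the line with the high YAP1, PTPRC, CD68 and KRT18 levels, whose part in these calls was not tested. Of 18 NF-kB genes 2 were higher and 0 lower, and of 34 immediate early genes 3 were higher and 1 lower. Of 32 mesenchymal transcription factors 2 were higher and 2 lower. The shares over all genes were 0.424% higher and 0.549% lower.

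The adrenergic transcription factors parted by pair. Of 28 measured 5 were lower and 0 higher, against 0.549% and 0.424% of all genes, with a median difference of -0.08. Falls were called for 22 in Kelly, 15 in BE2C, 14 in SKNAS and 18 in SHSY5Y. The shares over all genes were 10.7%, 4.57%, 6.04% and 6.85%. In Kelly minus SKNAS 14 were lower, against 2.95% of all genes, and in BE2C minus SHSY5Y 7 were higher, against 0.841%. TBX2, HEY1 and INSM1 were among the lower factors. TBX2, a T-box repressor, fell by 1.41 in Kelly, 0.61 in BE2C, 0.42 in SKNAS and 0.85 in SHSY5Y. INSM1, a zinc finger factor of neuroendocrine cells, fell by 0.61 in Kelly, and its responses of -0.07 in BE2C, 0.16 in SKNAS and 0.21 in SHSY5Y were not called.

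GATA3 fell 3.31-fold in Kelly, 1.82-fold in BE2C, 2.82-fold in SKNAS and 2.79-fold in SHSY5Y. On the log2 scale ISL1, a LIM homeobox factor, fell by 1.63, 0.82, 1.44 and 1.37 in those lines. Neither was called in the mean difference, at 0.19 and 0.18. HAND1, a bHLH relative of HAND2, was chosen after its values were seen. HAND1 fell by 1.39, 0.37 and 1.79 in Kelly, BE2C and SHSY5Y, with -0.01 in SKNAS not called. Its mean difference was 0.02, while its pair differences of -1.38 in Kelly minus SKNAS and 1.42 in BE2C minus SHSY5Y were both called.

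The genes called in opposite directions also held CCNG2, PPP1R15B and CLK1. CCNG2, an atypical cyclin, fell by 2.22 in Kelly, 0.74 in BE2C, 0.42 in SKNAS and 1.47 in SHSY5Y on the brighter of its rows. PPP1R15B, which directs phosphatase 1 to eIF2 alpha, fell by 1.80, 0.72, 1.05 and 2.30 in the same order of lines, and CLK1, a kinase of SR splicing factors, by 1.31, 0.76, 0.86 and 2.08. On these rows Kelly or SHSY5Y, 1 line of either kind, had the deepest fall for each. On the dimmer rows the mean difference of none of the 3 was called. The dimmer PPP1R15B row, near background, gave responses of -0.66 in Kelly, -0.16 in BE2C, -0.82 in SKNAS and -0.49 in SHSY5Y, with SKNAS the lowest.

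**Figure D5:**
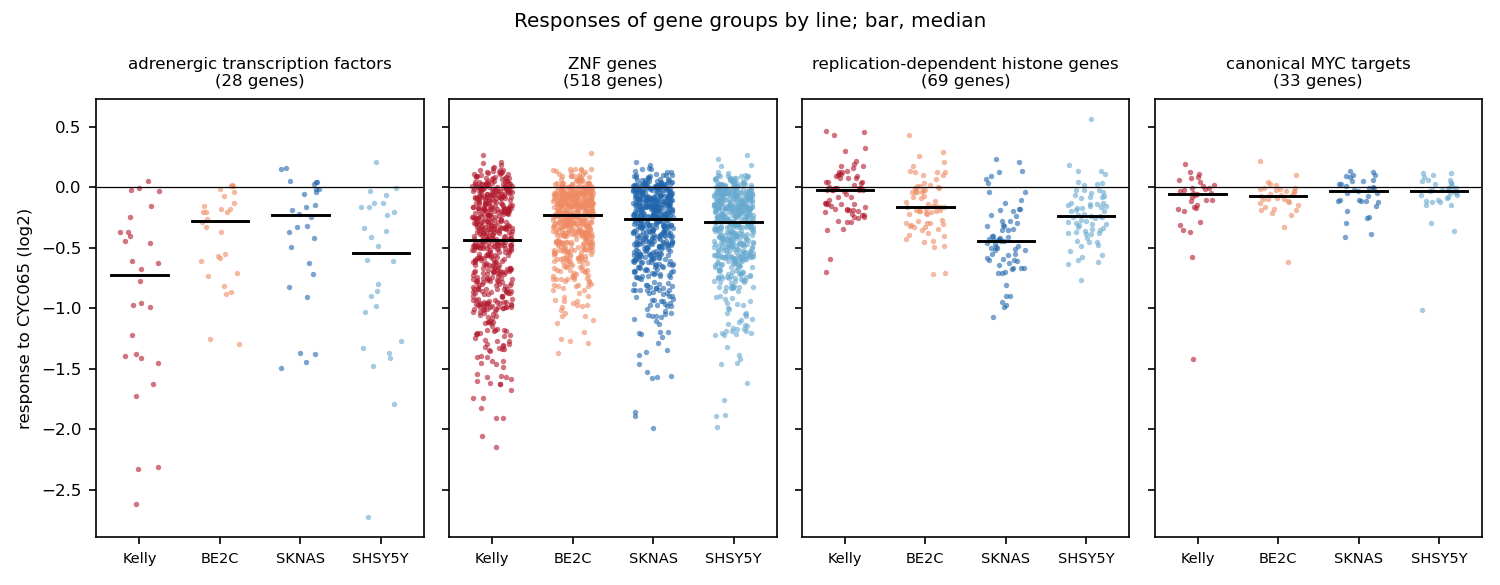
Response (log2) of the measured members of gene groups by line. The median over the adrenergic factors was -0.73 in Kelly, -0.28 in BE2C, -0.23 in SKNAS and -0.54 in SHSY5Y, and that over the histone genes was lowest in SKNAS, at -0.44.

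Replication-dependent histone genes, whose messages lack a poly(A) tail, were higher where called. Of 69 measured 8 were higher and 0 lower, against 0.424% and 0.549% of all genes. The median difference was 0.21, against 0.010 over all genes. Falls were called for 11 in Kelly, 13 in BE2C, 49 in SKNAS and 28 in SHSY5Y. The shares over all genes were 10.7%, 4.57%, 6.04% and 6.85%. In Kelly minus SKNAS 25 were higher, against 0.942% of all genes, and in BE2C minus SHSY5Y 1 was, against 0.841%. HIST1H4B, which encodes histone H4, had the largest difference. HIST1H4B levels in Kelly were 6.95, 6.92 and 7.26 with CYC065, against 7.07, 6.71 and 7.03 untreated, and in BE2C 6.35, 6.12 and 6.26 with CYC065, against 6.23, 6.48 and 6.36 untreated. SKNAS arrays had 5.37, 5.52 and 5.32 with CYC065, against 6.49, 6.51 and 6.43 untreated, and SHSY5Y arrays 6.07, 5.93 and 5.89 with CYC065, against 6.69, 6.56 and 6.54 untreated. HIST1H4B overlapped between treatments in Kelly and BE2C and fell without overlap in SKNAS and SHSY5Y, by 1.07 and 0.63. Its difference was 0.85 ± 0.10 (adjusted p = 6.17e-05, limma). The number of higher histone genes was 6 with arrays centred on their median and 20 with array weights, with 0 lower in both. In Kelly minus SKNAS it ranged from 12 with median centring to 34 with housekeeping centring, and in BE2C minus SHSY5Y from 0 to 3 under the same settings.

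Zinc finger genes named ZNF, many of them KRAB repressors, were mostly lower where called. Of 518 measured 14 were lower and 1 higher, with a median difference of -0.04, which became 0.02 when arrays were centred on housekeeping genes. Over all genes 0.549% were lower and 0.424% higher. In Kelly minus SKNAS 82 were lower and 3 higher, against 2.95% and 0.942% of all genes. In BE2C minus SHSY5Y 18 were higher and 0 lower, against 0.841% and 0.152% of all genes. Housekeeping centring gave 9 lower and 3 higher in the mean difference and 54 lower and 4 higher in Kelly minus SKNAS. Array weights gave 22 lower and 10 higher in the mean difference, and 57 higher and 4 lower in BE2C minus SHSY5Y. ZNF253 fell by 1.33 in Kelly, 1.01 in BE2C, 0.24 in SKNAS and 0.86 in SHSY5Y. ZNF844 fell by 1.57, 0.82 and 1.13 in Kelly, BE2C and SHSY5Y, with -0.14 in SKNAS not called.

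Several groups tied to MYCN or to the drug target gave no call by limma. Of 33 canonical MYC targets 0 were called and 4 had an unadjusted p under 0.05, with a median difference of -0.05. Falls of these targets were called for 10 in Kelly, 7 in BE2C, 6 in SKNAS and 3 in SHSY5Y. The shares of falls over all genes were 10.7%, 4.57%, 6.04% and 6.85%. Among 30 genes for P-TEFb, its 7SK inhibitor complex and other elongation factors, 0 were called and 8 had an unadjusted p under 0.05. Of 16 BCL2 family genes 0 were called and 1 had an unadjusted p under 0.05. Over all genes 3497 of 32803 (10.7%) had an unadjusted p under 0.05. By limma 0 were called among 24 E2F and replication genes, 17 mitotic regulators, 20 receptor kinases, 82 ribosomal protein genes and 19 recombination genes, where 6, 2, 3, 10 and 0 had an unadjusted p under 0.05. CDK9 itself had a difference of 0.08, and HEXIM1, the P-TEFb inhibitor, had -0.01. MCL1, a short-lived survival protein of the BCL2 family, fell by 1.17 in Kelly, 0.66 in BE2C, 0.94 in SKNAS and 0.96 in SHSY5Y, a difference of 0.04 ± 0.06 (adjusted p = 0.901, limma). A gene not called is not shown to respond alike. In simulated data the contrast recovered 80% of 1.5-fold changes and 100% of 2-fold changes. Of the smallest planted changes, which were under 1.5-fold, it recovered 48%.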

How the data were processed

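Total RNA of 4 human lines, 100 ng a hybridisation per the labels' protocols, was measured on Affymetrix human transcriptome arrays. The deposited values are log2 summaries per array row. The submitters' processing notes name RMA, affy and limma, with no version or role. RMA scales arrays towards one distribution, so a change in total RNA cannot be seen. The authors' deposited table also holds p-values, raw and adjusted, for BE2C and SHSY5Y by symbol, which were not used as results. Its fold changes and mean levels named the rows. A symbol was given to the row, or pair of rows, whose 4 values equal the table's within 1e-07. This named 32803 of 33720 symbols (97.3%), 26584 through a single row and 6219 through a mean over 2. With SHSY5Y values moved to other symbols 0 of 3000 matched. Of 25888 named rows with a chromosome in both sources, 25811 (99.7%) lay on the chromosome RefSeq gives. The brighter row stood for a symbol with 2. ACTB had no matched row.

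Limma 3.58.1 (R 4.3.3) was fitted to the 24 arrays with 8 group means and moderated variances, with no low-level filter, and p-values were adjusted by Benjamini-Hochberg over all 32803 genes. Errors are moderated standard errors. Replicate arrays are called biological replicates in the design text, and p-values measure the spread between them. Levels of different genes are not comparable. The contrast was tested on simulated data, with 11 false calls in a fit of 32803 genes. There every line had the same response apart from the planted changes, with independent noise on each array. False calls from responses particular to 1 line could therefore not arise in it, and their number in the real data is not known. Tables were handled with pandas 2.3.3 in Python 3.11.15. The comparison, the gene lists and the members were chosen with earlier results of these data known. Genes are named by a rule: the 15 largest of each sign called in the mean difference and both pairs, 6 of each sign called otherwise, up to 4 called members of each list and a fixed list; HAND1 and small RNA genes were named after their values were seen. Lists are described by counts and medians, with no test. Lists the text does not describe gave at most 2 called genes each, apart from 3 of 148 intronic transcripts and 7 of 1526 small nuclear RNA genes. Replicate numbers were not used to pair samples in the main fit. Same-numbered arrays were compared between lines within a treatment only. Of 36 such pairs 5 had deviations correlated above 0.1 (r from -0.29 to 0.16). A pairing of CYC065 with untreated arrays inside a line was not examined. The mouse arrays were not used here. Alternatives were other variances, normalisations, rows, filters, a minimum fold of 1.5, array weights, a replicate block, each array left out, and the lines as observations.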

Additional observations from a re-analysis of the deposited data

Results flagged for a closer look

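The following genes were singled out because their difference in response was itself different between the 2 pairs, Kelly minus SKNAS less BE2C minus SHSY5Y (limma, adjusted p under 0.05, log2). The difference between the pairs was -1.879 for MYCN, -1.266 for RGS16, -0.6864 for PCDH18, -0.8836 for DUSP6 and -0.6212 for MYC, all called in both pairs in one direction, so the sign was shared and the size was not. It was -0.9161 for C2CD4A, -1.562 for ZFP36L2, -1.82 for HOXD13, -0.7121 for RGS2 and -1.061 for SOX2, which were lower in the amplified lines mainly through Kelly. It was 3.541 for NFE2L3, 1.693 for DNM3OS and -1.136 for NFIL3, which were higher. DNM3OS lay near background in Kelly, between 3.02 and 3.48 in both treatments, so a fall could not be seen there. In SKNAS it had 6.06, 6.13 and 5.70 with CYC065, against 7.32, 7.43 and 7.44 untreated. BE2C arrays had 4.07, 4.21 and 4.18, against 4.95, 4.82 and 4.74, and SHSY5Y arrays 3.81, 3.69 and 3.62, against 4.42, 3.89 and 4.45. NFE2L3 and DUSP6 have a second row with a smaller difference.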

How the results depend on the processing

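The alternatives for the difference between the pairs, the opposite calls and the line responses were chosen after seeing the data, the others were listed at the start. The cause of each move below was not tested, except that a minimum fold removes genes by construction. A fold of at least 1.5 left 62 genes in the difference between amplified and other lines, 372 in Kelly minus SKNAS, 151 in BE2C minus SHSY5Y, 12 in both pairs, 40 in opposite directions, and 1296, 371, 677 and 659 in Kelly, BE2C, SKNAS and SHSY5Y. Array weights gave 737, 2086, 1271, 56 and 382 for the first 5 of these, 2267 for the difference between the pairs, and 10273 and 6591 for Kelly and SHSY5Y. Lines as the observations gave 0 (1331 at an unadjusted p under 0.05). The 12 arrays of a deposit alone gave 108 for BE2C minus SHSY5Y. Median centring gave 85 opposite calls and housekeeping centring 10333 for Kelly. Whether replicate numbers pair samples was checked between lines only. The replicate block gave 254 in the main difference, 83 opposite calls, and 3947, 1040, 1642 and 1773 in the lines. Without 1 array the counts ranged from 249 to 340 for the main difference, 896 to 1549 for Kelly minus SKNAS, 204 to 543 for BE2C minus SHSY5Y, 14 to 28 for both pairs, 89 to 241 for opposite calls, 913 to 1513 for the difference between the pairs, 4545 to 6871 for Kelly, 1491 to 2468 for BE2C, 2054 to 3092 for SKNAS and 2243 to 2956 for SHSY5Y. The opposite calls were 91 without BE2C untreated replicate 1 and without SHSY5Y untreated replicate 1, 89 without SHSY5Y untreated replicate 2, 241 without SHSY5Y untreated replicate 3 and 90 without SHSY5Y CYC065 replicate 5. MYC, MYCN, PCDH18, RGS16, SNHG1 and SNORD22 were called in both pairs under the 32 settings that gave both pairs for the named genes. CCDC144B and DUSP6 were called under all of these but the dimmer row. The minimum fold, which is not among the 32, removed MYC and CCDC144B. No called mean difference of a named gene changed sign, while some near 0 that were not called did, such as HEXIM1 and MAX under housekeeping centring. Housekeeping centring turned the split of 139 higher and 180 lower genes into 211 and 77, and the medians of the ZNF genes (0.02) and the MYC network (0.01) to above 0. The canonical MYC targets had a median of 0.007 there.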

Other observations

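Small RNA genes of an imprinted cluster, chosen after their values were seen, moved in BE2C. MIR889 levels were 2.59, 2.81 and 2.62 in BE2C with CYC065, against 5.08, 4.63 and 5.09 untreated, while levels in Kelly, SKNAS and SHSY5Y lay between 2.09 and 2.89 in both treatments. The untreated BE2C level lay above the background median of 3.71 and the CYC065 level below that of 3.85, so the size of the fall is a limit only and is not given. MIR382 and MIR544A fell in BE2C too, to levels below background. Of 40 measured SNORD113 and SNORD114 genes, 8 fell and 1 rose in BE2C, against 0 falls and 1 rise in Kelly, 0 falls and 6 rises in SKNAS, and 0 of either in SHSY5Y. Falls over all genes were 10.7%, 4.57%, 6.04% and 6.85% in Kelly, BE2C, SKNAS and SHSY5Y. Rises were 7.69%, 1.8%, 2.22% and 1.66%.

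MIR590 was higher in the amplified lines and fell in SKNAS, to a level below background. Among the other lists, 2 of 22 p53 targets, 3 of 21 mRNA decay genes, 2 of 25 TGF-beta, BMP and Notch response genes and 2 of 18 SOX factors were lower and 0 higher. Over all genes 0.549% were lower and 0.424% higher. The pairs parted for p53 targets, with 7 lower and 0 higher in Kelly minus SKNAS and 0 lower and 3 higher in BE2C minus SHSY5Y. For mRNA decay genes these counts were 7 lower and 1 higher, against 0 lower and 3 higher. Of 19 ATF4 and unfolded protein genes and of 19 clock genes 2 were lower and 1 higher, and so were 2 and 1 of 18 TXNIP and FOXO genes. The ATF4 and unfolded protein list had 6 lower and 0 higher in Kelly minus SKNAS, against 0 lower and 3 higher in BE2C minus SHSY5Y. The shares over all genes were 2.95% lower and 0.942% higher in Kelly minus SKNAS. In BE2C minus SHSY5Y they were 0.152% lower and 0.841% higher. Of 14 Kruppel-like factors, 17 phosphatase 1 subunits and 24 splicing kinases and SR proteins 2 each were higher and 0 lower. Of 252 snoRNA genes 5 were higher and 4 lower. By limma 0 of 15 polyamine genes and 0 of 20 heat shock genes were called, with 2 and 3 at an unadjusted p under 0.05.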
